A study of Mus musculus with 9 samples.

Results

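The genes described are the nuclear genes of the last steps of oxidative phosphorylation: complex III, cytochrome c, complex IV and ATP synthase. They were chosen by symbol from the log2 CPM table deposited by the authors, as every gene whose symbol begins with Uqcr or Atp5, is Cox followed by a digit from 4 to 8, or equals Cyc1 or Cycs, with pseudogenes left out. This gave 41 of the 14592 named genes in that table. The rule itself uses symbols only. The members were chosen with earlier results of these data known, and genes with low counts such as Cox4i2 and Cox8b are absent from that table. Atp5mpl, which fits the rule by symbol and was not low in counts, is absent from it too. By role they were 9 subunits of complex III, cytochrome c (Cycs), 13 subunits of complex IV, the supercomplex factor Cox7a2l, 5 subunits of the F1 head of ATP synthase, 10 subunits of its stalk and membrane part Fo, and a pair of genes, Atp5s and Atp5sl, that carry the prefix without being subunits of the enzyme.

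RNAseq covered the mediobasal hypothalamus (MBH) of wild-type C57Bl/6 males at weaning (P21), and asked what maternal emulsifier intake did to gene expression there. The dams drank either water (CTRL, n = 4 litters) or water with 1% carboxymethylcellulose (CMC) and 1% polysorbate 80 (P80) (Emul, n = 5 litters), for 6 weeks before mating and through gestation and lactation. CMC and P80 are synthetic emulsifiers used in processed food. Pups stayed with their dams until P21, so exposure before and after birth cannot be told apart, and a pup may also have drunk the solution itself.

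Oxidative phosphorylation takes place in the inner mitochondrial membrane. Complex III passes electrons from ubiquinol to cytochrome c, complex IV passes them on to oxygen, and both pump protons, whose return through the Fo ring turns the central stalk of ATP synthase and drives ATP synthesis in F1. Most subunits are nuclear genes, while cytochrome b of complex III, the core of complex IV and part of Fo are mitochondrial genes, so each enzyme is built from both genomes. Neurons depend on this pathway for most of their ATP.

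Each library held between 28245360 and 46067534 estimated counts. All 41 genes passed the filter on low counts (a CPM above 1 in at least 4 libraries), with 21963 to 36130 counts per library for Atp5b at one end and 27 to 58 for Cox7a1 at the other, so counting error is a concern only for Cox7a1, Cox6b2, Cox6a2 and Atp5g2. CTRL 3 had the lowest total. In bulk tissue, fewer cells of a type and less RNA per cell cannot be told apart. Marker genes moved between the groups as well. Over all genes tested, 6.84% were higher and 8.99% lower in Emul at an unadjusted p-value under 0.05 (limma-voom). Of 6 neuronal markers 4 were higher in Emul and 0 lower at an unadjusted p-value under 0.05 (limma-voom), with a summed CPM of 2464 to 2687 in CTRL and 2669 to 2880 in Emul. Of 6 oligodendrocyte markers 0 were higher and 5 lower, with a summed CPM of 13079 to 16467 in CTRL and 10212 to 13955 in Emul. Of 8 markers of the MBH 7 passed the filter, all but Kiss1, and 1 of them, Fezf1, was lower. In the other 11 marker lists at most 1 gene passed, namely Gfap, Olig1 and Slco1a4, lower, and Calb2, higher. The 5 blood markers all lay above 0 without passing, with a median log2 fold change of 0.44 and a summed CPM of 225 to 655 in CTRL and 394 to 816 in Emul. Of the 6 thalamic markers, genes of a neighbouring region and among them Calb2, 5 lay above 0, with a median of 0.41 and a summed CPM of 248 to 306 in CTRL and 262 to 442 in Emul. The part of these shifts in the results below was not tested.

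The promoters and coding stretches shown first are those of the genes that the results turn on. Promoters are from RefSeq (GRCm38.p6), the 250 bases before the annotated start, in the direction of the gene, and 33 of the 41 genes matched an entry. Capitals mark matches to the core letters of NRF1, a transcription factor known for binding promoters of respiratory genes (CGCATGCGC, or GCGCATGCG on the other strand), and to the CREB letters TGACGTCA, which read the same on both strands. Cycs and Atp5g2 hold an NRF1 match and stood on opposite sides of the comparison, whereas Atp5f1 and Atp5c1 held none of the letters searched.
Cycs, chr6:50566570-50566819, minus strand: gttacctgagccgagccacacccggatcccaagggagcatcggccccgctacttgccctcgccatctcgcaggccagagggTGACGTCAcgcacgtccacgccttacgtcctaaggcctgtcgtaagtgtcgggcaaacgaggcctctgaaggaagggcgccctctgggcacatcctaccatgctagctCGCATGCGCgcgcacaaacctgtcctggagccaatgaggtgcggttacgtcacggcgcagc
Atp5g2, chr15:102671048-102671297, minus strand: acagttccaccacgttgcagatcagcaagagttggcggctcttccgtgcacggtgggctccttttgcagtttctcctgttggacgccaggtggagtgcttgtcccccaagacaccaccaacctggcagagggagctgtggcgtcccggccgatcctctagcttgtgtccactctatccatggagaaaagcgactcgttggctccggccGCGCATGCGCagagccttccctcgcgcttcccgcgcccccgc
Atp5f1, chr3:105959264-105959513, minus strand: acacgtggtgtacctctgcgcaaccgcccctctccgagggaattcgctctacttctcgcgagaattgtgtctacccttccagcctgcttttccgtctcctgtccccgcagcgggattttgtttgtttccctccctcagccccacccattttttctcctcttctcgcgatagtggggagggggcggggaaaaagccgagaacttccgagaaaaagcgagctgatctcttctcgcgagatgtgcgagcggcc
Atp5c1, chr2:10080433-10080682, minus strand: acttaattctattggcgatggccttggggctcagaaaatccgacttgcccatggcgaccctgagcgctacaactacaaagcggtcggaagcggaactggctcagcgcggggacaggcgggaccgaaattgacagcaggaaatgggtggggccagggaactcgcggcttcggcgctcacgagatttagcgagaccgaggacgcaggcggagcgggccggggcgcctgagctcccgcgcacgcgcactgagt

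The NRF1 match lay 61 bases before the start in Cycs, which also had the CREB letters 169 bases before it. In Atp5g2 a match to the other-strand letters GCGCATGCG began 42 bases before the start, and a match to CGCATGCGC began 41 bases before it. These matches overlapped in all but 1 letter at each end. Over the 300 bases from 250 before to 50 after the start, 7 of the 33 genes (21.2%) held the NRF1 letters in at least 1 promoter, against 1.95% of 27025 genes in the RefSeq table. They were Atp5g2, Atp5k, Atp5l, Cox6a1, Cycs, Uqcr11 and Uqcrc1. The letters of GABPA, the other factor long linked to respiratory genes (CCGGAAGT), were held by 4 of 33 (12.1%, against 4.31% of all genes), those of YY1 (AAGATGGCG) by 3 (9.09% against 1.64%), the estrogen-related receptor letters TCAAGGTCA by 1 (3.03% against 0.466%) and the CREB letters by 2 (6.06% against 2.03%). Both strands were searched for each. A match is a run of letters and not a measured binding site. Only Cycs and Atp5g2 of the 7 NRF1-matched genes passed an unadjusted p-value of 0.05 between the groups, in opposite directions.

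A pair of members has its coding sequence repeated elsewhere in the genome. The coding sequence of Atp5g2, 438 bases without the stop codon, was identical over all 438 bases in Gm10175, a transcribed processed pseudogene at chr7:23946646-23947290. The coding sequence of Cycs, 315 bases, was likewise identical over all 315 bases in Gm10053, annotated as protein-coding at chr19:24875686-24876631. Coding bases 1 to 60 are shown in lower case, since no base differs to be marked with a capital. Reads from these stretches cannot be assigned to either gene by sequence. By its model, kallisto shares them out using reads that reach bases the pair does not share. The shared sequence went beyond the coding part in both pairs. Of the 701 31-mers (runs of 31 bases) of the main Atp5g2 transcript, 87.7% were also in Gm10175. Of the 3093 31-mers of Cycs, 28.6% were also in Gm10053. The split between Atp5g2 and Gm10175 thus rests on a small part of the transcript.
Atp5g2 and Gm10175: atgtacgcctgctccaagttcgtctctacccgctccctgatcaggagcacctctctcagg
Cycs and Gm10053: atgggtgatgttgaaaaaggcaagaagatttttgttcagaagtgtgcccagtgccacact

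Levels between genes were compared per length, as TPM, which is a share of all transcripts in a library. In complex III, Uqcrh, the hinge protein, was the most abundant (480 ± 13.8 TPM in CTRL and 499 ± 46.5 in Emul, SD) and Uqcrc1, a core protein, the least (114 ± 1.62 and 107 ± 2.60). The order between them was Uqcr11, Uqcr10, Uqcrb, Uqcrq, Cyc1, Uqcrc2 and Uqcrfs1. The small subunits Uqcr11, Uqcr10, Uqcrb and Uqcrq overlapped each with the next in this order over the 9 libraries, as did Cyc1 with Uqcrc2, while Uqcrh, Uqcrfs1 and Uqcrc1 did not overlap with their neighbours. Within each of the 9 libraries, Uqcr11 was above Uqcr10, Uqcr10 above Uqcrb and Cyc1 above Uqcrc2, whereas Uqcrb was above Uqcrq in 6. In complex IV, Cox4i1 (820 ± 33.4 TPM in CTRL and 778 ± 33.6 in Emul) led and overlapped in range with Cox8a (733 ± 15.1 and 703 ± 43.6), but was above it within each of the 9 libraries. Among the 10 ubiquitous subunits the lowest was Cox7a2, at 275 ± 12.2 and 290 ± 35.4 TPM. In ATP synthase, Atp5b, the catalytic beta subunit, stood above every other subunit (998 ± 24.4 and 926 ± 30.2 TPM), its lowest library at 906 TPM against at most 569 TPM for Atp5g3, the next. Atp5g2 was the lowest at 22.8 ± 4.30 and 16.9 ± 2.25 TPM, its highest library at 27.1 against at least 208 TPM for Atp5d, the next above it. That level rests on how kallisto shared reads with Gm10175, and the TPM of the pair summed was 216 ± 13.7 in CTRL and 202 ± 17.97 in Emul. The other 13 ATP synthase subunits spanned 229 to 532 TPM as means over all libraries. Cycs, at 40.6 ± 0.695 and 40.7 ± 1.99 TPM, was below all complex III subunits, while Cycs and Gm10053 summed were at 210 ± 6.87 and 216 ± 16.6 TPM.

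**Figure D1:**
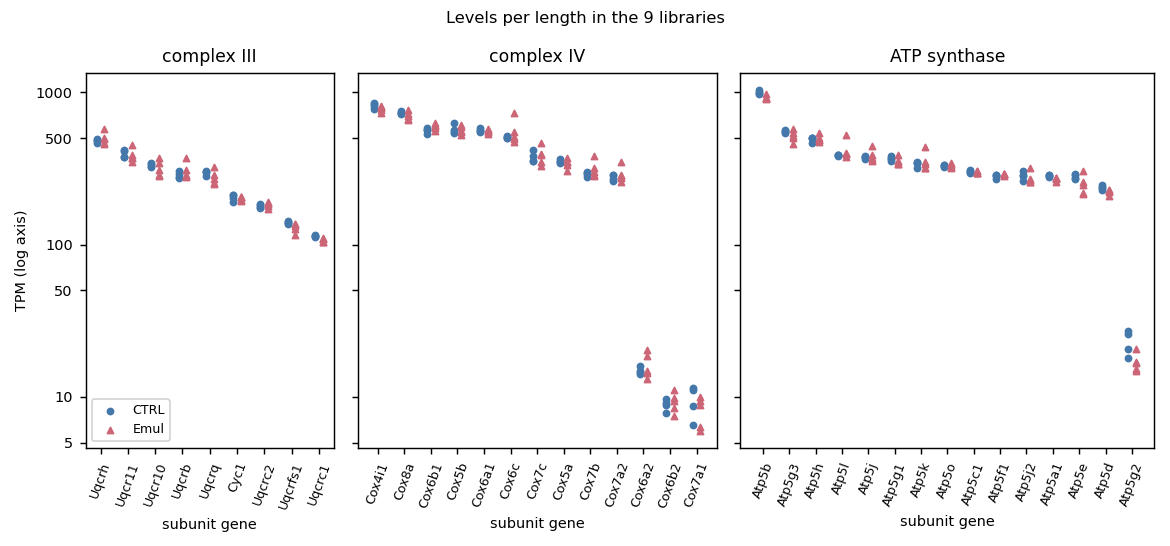
TPM (log axis) of each nuclear subunit gene in the 4 CTRL (circles) and 5 Emul (triangles) libraries, ordered by the mean over all libraries within complex III, complex IV and ATP synthase. Cox6a2, Cox6b2, Cox7a1 and Atp5g2 sit at or below 27.1 TPM, apart from all other subunits, and for Atp5g2 this holds without the reads shared out to Gm10175.

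The tissue isoforms of complex IV were a small part of their families. Cox6a2, the heart and muscle form, made up 2.57% ± 0.0831 of Cox6a TPM in CTRL and 2.85% ± 0.524 in Emul (two-sided exact permutation test, p = 0.381, adjusted p = 0.762 over 6 families). Its share in CTRL was 2.67, 2.61, 2.51 and 2.50%, and in Emul 2.30, 2.54, 3.59, 2.62 and 3.17%, so Emul 3 and Emul 5 lay above all CTRL libraries and Emul 1 below them. Cox7a1, likewise the heart and muscle form, made up 3.29% ± 0.680 of Cox7a in CTRL and 2.72% ± 0.469 in Emul (exact p = 0.175, adjusted p = 0.762), with 27 to 58 counts a library. Without CTRL 4 the difference in the Cox7a1 share was -0.884 percentage points (exact p = 0.0357, not adjusted). Cox6b2, the testis form, made up 1.55% ± 0.191 and 1.53% ± 0.223 of Cox6b (exact p = 0.897, adjusted p = 0.897). Of 6 skeletal muscle markers only Acta1 and Myh4 passed the filter on low counts, and their summed CPM was 4.67 to 7.05 in CTRL and 5.74 to 8.93 in Emul.

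A pair of isoforms was measured although the deposited log2 CPM table does not list them. Cox4i2, the lung form of subunit IV, was 0.356% ± 0.0518 of Cox4i in CTRL and 0.372% ± 0.0638 in Emul (exact p = 0.698, adjusted p = 0.838). Cox8b, the muscle form of subunit VIII, had 0 to 6 counts a library and a share of 0.138% ± 0.0940 and 0.117% ± 0.0480 of Cox8 (exact p = 0.675, adjusted p = 0.838). Within the Atp5g family, which encodes subunit c of the Fo ring from 3 genes with one mature protein, Atp5g1 made up 39.0% ± 0.690 of TPM in CTRL and 39.8% ± 1.5 in Emul (exact p = 0.373, adjusted p = 0.762). Atp5g3 was the largest of the 3 genes, at 551 ± 8.65 TPM in CTRL and 517 ± 41.8 in Emul, followed by Atp5g1 at 367 ± 11.9 and 352 ± 19.4.

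Between the groups, most members lay slightly above zero relative to all genes tested. At an unadjusted p-value under 0.05 (limma-voom), 6 of the 41 members (14.6%) were higher in Emul, against 6.84% of the 15340 genes tested, and 1 (2.44%) was lower, against 8.99%. No member passed an adjusted p-value of 0.05, as 0.117% of genes did, and none passed an unadjusted p-value under 0.05 together with a change above 1.5-fold, as 0.469% of genes did. The sources on the study give its cutoff with this fold and name the p-value once without adjustment and once as an FDR. The smallest adjusted p-value of a member was 0.146 (Atp5f1). By edgeR's quasi-likelihood test 0 members passed an adjusted p-value of 0.05, and by DESeq2 1 did, Atp5f1. The log2 fold change was above 0 in 36 members and below 0 in 5, with a median of 0.07, against a median of 0.00 over all genes tested. This direction held for libraries scaled by TMM or by median-of-ratios size factors (37 above and 4 below), but not for TPM, where 17 members lay above 0 and 24 below, with a median log2 difference of -0.02 (pseudocount 0.5). The median of all genes tested was itself -0.09 on that scale and 17.8% of genes lay above 0, so relative to it 33 members lay above and 8 below. Mitochondrially encoded genes held 12.6% to 15.4% of TPM in CTRL and 16.2% to 19.2% in Emul, and with them left out 27 members lay above 0 in TPM and 14 below. In TPM, Atp5c1 was at 301 in CTRL and 299 in Emul as means, Cycs at 40.6 and 40.7, and Atp5a1 (284 and 270) and Uqcrc1 (114 and 107) were lower in every Emul library than in every CTRL library. The members thus lay above the typical gene of these libraries, and not above 0 on every scale. The libraries of the groups did not overlap in 4 members, all higher in Emul (9.76%, against 2.8% of genes), and in 0 members lower in Emul (against 3.8% of genes). Without CTRL 3 and Emul 2, the pair of libraries described below, 21 members lay above 0 and 20 below, the median was 0.00, and 3 members were higher (Atp5f1, Cycs and Cox7b) and 2 lower (Atp5g2 and Atp5e). This pair was chosen after seeing the data, since Emul 2 was the highest library in 35 members and CTRL 3 the lowest in 24. Leaving out a high Emul and a low CTRL library lowers the difference by construction, here and wherever it is given below. These values thus cannot decide whether the difference rests on the pair. Single libraries moved the count of higher members, to 3 without CTRL 3 and to 15 without Emul 3, and without Emul 3 the number of members that did not overlap was 11. The shares of all genes given here are from the main fit to all 9 libraries, so these counts have no share of their own beside them. With fewer libraries, groups also overlap less easily in any gene. With libraries scaled by their size alone, 3 members were higher and 1 lower, with 30 above 0 and 11 below, where the median of all genes tested was -0.03.

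**Figure D2:**
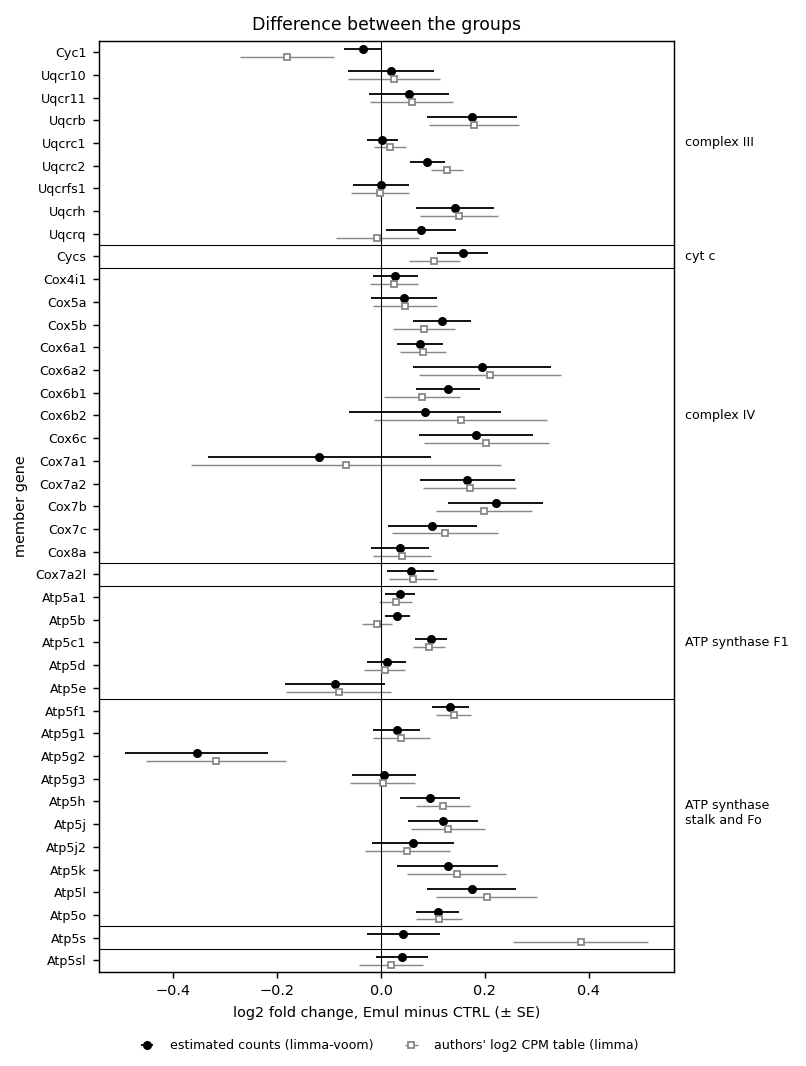
Log2 fold change (Emul minus CTRL, bars are the standard error) of the 41 members from summed estimated counts (filled circles) and from the log2 CPM table of the authors (open squares), grouped by role. Atp5g2 lies farthest below 0 on both measures and most of the others lie between 0 and 0.22, while Atp5s and Cyc1 differ most between the measures.

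In complex III, 1 of 9 subunits was higher and 0 lower at an unadjusted p-value under 0.05 (limma-voom), with a median log2 fold change of 0.05. Over all genes tested, 6.84% were higher and 8.99% lower. With so few genes in each part, these counts are not read as results about a complex, here or below. Uqcrc2, a core protein of the matrix side, was at 7.21, 7.21, 7.15 and 7.18 log2 CPM in CTRL and at 7.29, 7.33, 7.19, 7.25 and 7.32 in Emul. All 5 Emul libraries were above the CTRL mean, and Emul 3 fell among the CTRL values. Uqcrc2 differed by a log2 fold change of 0.09 (SE 0.0338, 6.33% higher, p = 0.0222, adjusted p = 0.237, exact permutation p = 0.0476). The catalytic subunits Cyc1, Uqcrfs1 (the Rieske protein) and the core protein Uqcrc1 had exact permutation p-values of 0.349, 0.976 and 0.881. Uqcrb and Uqcrh, small subunits, had the largest values of complex III, 0.17 and 0.14 on the log2 scale, and both had Emul 2 highest and did not pass (adjusted p = 0.353 and adjusted p = 0.386). For Uqcrc2 the p-value was 0.0636 without CTRL 3 and 0.0525 without Emul 2.

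Cytochrome c, which carries electrons from complex III to complex IV and takes part in apoptosis, had groups that did not overlap. Cycs was at 5.76, 5.72, 5.69 and 5.75 log2 CPM in CTRL and at 5.80, 6.06, 5.83, 5.87 and 5.89 in Emul. The gap between the highest CTRL and the lowest Emul library was narrow, and Emul 2 stood above the rest. Its log2 fold change was 0.16 (SE 0.0498, 11.5% higher, p = 0.00836, adjusted p = 0.181, exact permutation p = 0.0159), and 0.10 (p = 0.0241) without CTRL 3 and Emul 2. Gm10053, with the same coding sequence, had 129% of the counts of Cycs and a log2 difference of 0.15 (adjusted p = 0.323, SE 0.0681), and the sum of the pair gave 0.15 (SE 0.0568) with an unadjusted p-value of 0.0204. The difference of Cycs was thus close to that of the sum, but it was 0.10 with lengthScaledTPM counts (counts rebuilt from TPM and mean transcript length), where the unadjusted p-value was 0.0787.

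In complex IV, 1 of 13 subunits was higher and 0 lower, against 6.84% and 8.99% of genes tested, with a median of 0.10. Cox7b, a small subunit needed for assembly of the complex, was at 6.51, 6.54, 6.38 and 6.54 log2 CPM in CTRL and at 6.66, 7.09, 6.58, 6.60 and 6.62 in Emul. The groups did not overlap, but Emul 2 lay far above and CTRL 3 below the rest of their groups. This was a log2 fold change of 0.22 (SE 0.0907, 16.5% higher, p = 0.0316, adjusted p = 0.264, exact permutation p = 0.0238), and 0.09 (p = 0.0226) without these libraries together. Without CTRL 3 alone the p-value was 0.0820, and without CTRL 1 alone 0.0508. Cox6c, another small subunit, had 0.18 with Emul 2 at 7.22 and the rest of Emul at 6.59 to 6.76, overlapping with 6.46 to 6.65 in CTRL (adjusted p = 0.443). Of the 4 most abundant subunits, Cox4i1 and Cox8a differed by 0.03 and 0.04 on the log2 scale (exact permutation p = 0.571 and 0.651), and Cox6b1 and Cox5b by 0.13 and 0.12 (exact permutation p = 0.0873 and 0.119). Cox7a2l, grouped here as a supercomplex factor, differed by 0.06 (SE 0.0459, adjusted p = 0.578).

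In the F1 head of ATP synthase, 1 of 5 subunits was higher and 0 lower, with a median of 0.03. Of all genes tested, 6.84% were higher and 8.99% lower. Atp5c1, the gamma subunit that turns inside the head, was at 7.32, 7.27, 7.22 and 7.26 log2 CPM in CTRL and at 7.34, 7.41, 7.33, 7.34 and 7.38 in Emul. The groups did not overlap, by a margin smaller than the spread within either. The log2 fold change was 0.10 (SE 0.0306, 6.83% higher, p = 0.00879, adjusted p = 0.181), with an exact permutation p of 0.0079, the smallest that 4 against 5 libraries can give, and it was 0.07 (p = 0.0662) without CTRL 3 and Emul 2. The alpha and beta subunits Atp5a1 and Atp5b, which form the catalytic hexamer with 3 copies each, differed by 0.04 and 0.03 on the log2 scale (exact permutation p = 0.190 and 0.119). Atp5e, the epsilon subunit, differed by -0.09 (adjusted p = 0.691), and by -0.21 without CTRL 3 and Emul 2, where its unadjusted p-value was 0.00889.

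In the stalk and Fo, 2 of 10 subunits were higher and 1 was lower, with a median of 0.10. Of all genes tested, 6.84% were higher and 8.99% lower. Atp5f1, subunit b of the peripheral stalk that holds F1 still, was at 7.55, 7.52, 7.46 and 7.47 log2 CPM in CTRL and at 7.65, 7.73, 7.57, 7.59 and 7.64 in Emul. Every Emul library lay above every CTRL library. Its log2 fold change was 0.13 (SE 0.0359, 9.69% higher, p = 0.00288, adjusted p = 0.146, exact permutation p = 0.0159), and 0.10 (p = 0.0180) without CTRL 3 and Emul 2. In TPM, Atp5f1 was at 280 ± 8.34 in CTRL and 288 ± 3.87 in Emul, and the groups overlapped. A transcript annotated for nonsense-mediated decay held 53.6% of its counts in CTRL and 55.1% in Emul. The main protein-coding transcript held 45.3% and 43.4%. Atp5o, the subunit that ties that stalk to the head, was at 6.88, 6.80, 6.78 and 6.83 in CTRL and at 6.96, 7.05, 6.88, 6.84 and 6.94 in Emul. Emul 4 lay below CTRL 1, so the groups overlapped. The log2 fold change was 0.11 (SE 0.0421, 7.82% higher, p = 0.0238, adjusted p = 0.242, exact permutation p = 0.0397), and 0.07 (p = 0.124) without CTRL 3 and Emul 2. Leaving out CTRL 2, CTRL 3 or Emul 2 alone gave p-values of 0.0590, 0.0632 and 0.0511.

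Atp5g2, 1 of the 3 genes of subunit c, was the only member lower in Emul at an unadjusted p-value under 0.05. It was at 2.39, 2.89, 2.48 and 3.01 log2 CPM in CTRL and at 2.37, 2.25, 2.22, 2.61 and 2.34 in Emul. CTRL 2 and CTRL 4 lay above all Emul libraries, while CTRL 1 and CTRL 3 lay within their range. Atp5g2 thus had a log2 fold change of -0.36 (SE 0.137, p = 0.0234, adjusted p = 0.239, exact permutation p = 0.0635), and it did not pass without CTRL 2 (-0.29, p = 0.0770), CTRL 4 (-0.24, p = 0.0991), Emul 2 (-0.33, p = 0.0504) or Emul 3 (-0.32, p = 0.0508). The estimate of Atp5g2 rests on the small part of its sequence not found in Gm10175, which holds 87.7% of its 31-mers. Gm10175, with the same coding sequence, had 842% of the counts of Atp5g2, 5.59 ± 0.0816 log2 CPM in CTRL and 5.62 ± 0.169 in Emul. With its counts and those of other near-identical copies added, the log2 fold change of Atp5g2 was -0.01 (SE 0.0669), with an unadjusted p-value of 0.903. Atp5g2 made up 12.2% of the counts of the pair in CTRL, so its own difference alone would move the sum by -0.04, less than the SE of the sum, and the sum does not bear on whether Atp5g2 differed.

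**Figure D3:**
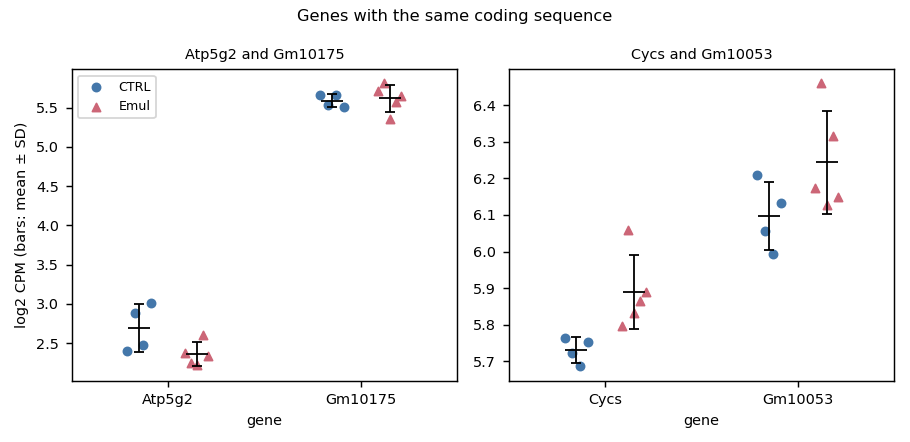
Log2 CPM of Atp5g2 and Gm10175 (left) and of Cycs and Gm10053 (right), pairs with an identical coding sequence, in CTRL (circles) and Emul (triangles) libraries, with mean and SD as bars. The mean of Atp5g2 is lower in Emul, that of Gm10175 is 5.59 in CTRL and 5.62 in Emul, and the means of Cycs and Gm10053 are both higher in Emul.

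Most members shared the same libraries at their extremes. Emul 2 was the highest library in 35 of 41 members, CTRL 3 was the lowest in 24 and Emul 3 in 12. The median deviation of the members from their own mean over the 9 libraries was 0.21 on the log2 scale in Emul 2, -0.11 in CTRL 3, -0.08 in Emul 3, and between -0.03 and 0.02 in the other 6. Over all genes tested it was 0.00 in every library. The summed CPM of the 37 nuclear subunits was 4395, 4312, 4103 and 4286 in CTRL and 4465, 4998, 4192, 4405 and 4405 in Emul. Emul 3 lay below 3 of the 4 CTRL libraries in this sum, and Emul 2 lay farther above the other Emul libraries than these lay from CTRL.

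**Figure D4:**
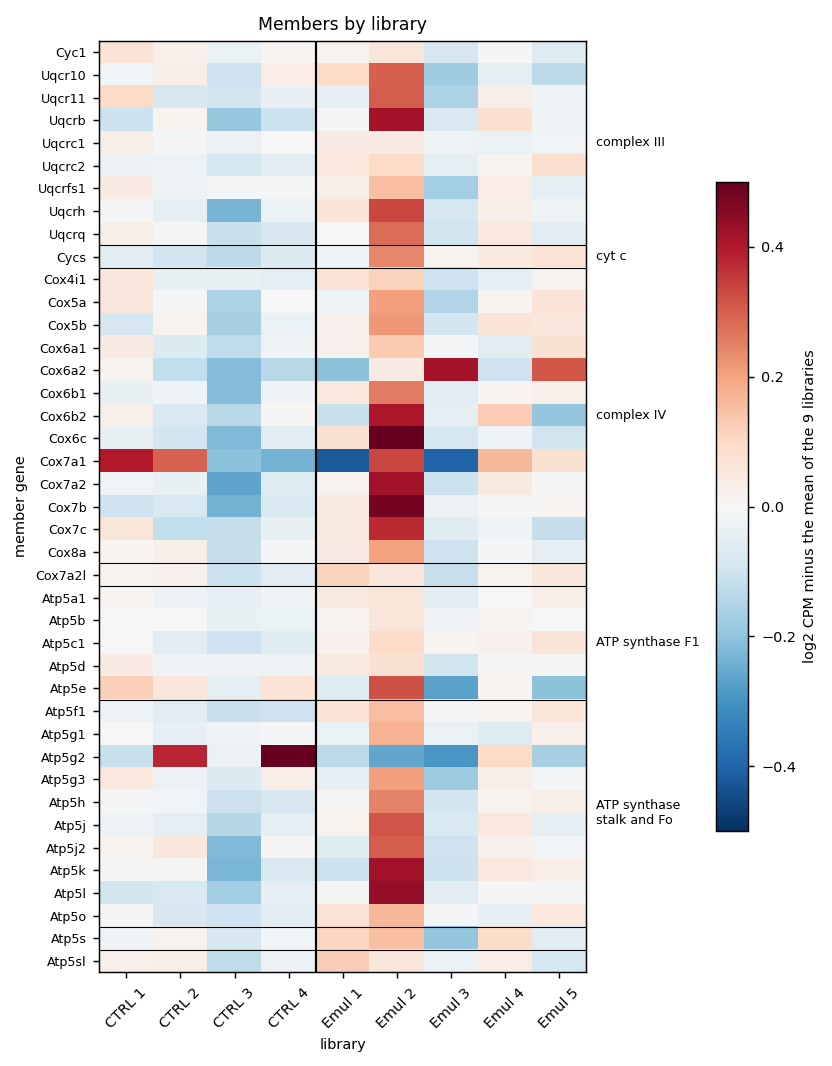
Log2 CPM of each member (rows, grouped by role) in each library (columns), as the difference from the member's mean over the 9 libraries (colour, red above and blue below). The column of Emul 2 is red for nearly all members, with a median of 0.21, and the columns of CTRL 3 and Emul 3 are mostly blue, with medians of -0.11 and -0.08.

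The deviation of these libraries was larger in short transcripts. Emul 2 lay above the mean of the other Emul libraries in 39 of 41 members, by a median of 0.23 and by up to 0.57 in Cox6c, and CTRL 3 lay below the mean of the other CTRL libraries in all 41, by a median difference of -0.10. Across the 41 members, which share library and depth, Spearman's rho with mean transcript length was -0.63 for Emul 2 and 0.63 for CTRL 3. In the 27 members under 1000 bases the median deviation of Emul 2 was 0.30, and in the 14 longer members 0.10. The same held outside the members, with 0.12 in Emul 2 over all genes tested under 1000 bases and -0.00 over longer ones. The called members are not all short, since Cycs (3060 bases), Uqcrc2 (1826), Atp5f1 (1449) and Atp5c1 (1164) are among the longer ones and Cox7b (873), Atp5o (834) and Atp5g2 (716) among the shorter. Whether RNA or library quality had a part in this was not tested.

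**Figure D5:**
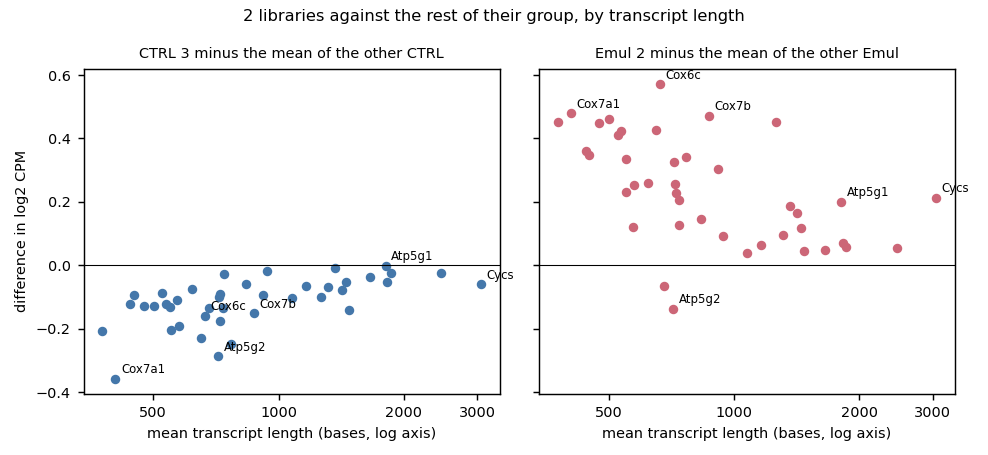
Difference in log2 CPM between CTRL 3 and the mean of the other 3 CTRL libraries (left) and between Emul 2 and the mean of the other 4 Emul libraries (right), against mean transcript length in bases (log axis), with 1 point per member. All 41 points lie below 0 on the left, and 39 lie above 0 on the right, where short transcripts reach 0.57.

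The log2 CPM table of the authors was tested as a second measure of the same libraries with limma. It gave 6 members higher (14.6%, against 6.05% of its 14592 named genes) and 1 lower (2.44%, against 7.42%) at an unadjusted p-value under 0.05. Atp5f1, Uqcrc2, Atp5c1 and Atp5o were higher and Atp5g2 was lower in both measures. Cycs and Cox7b, at 0.10 and 0.20 on the log2 scale, had unadjusted p-values of 0.0602 and 0.0539 in the table, where Atp5h (stalk subunit d, 0.12, adjusted p = 0.357) and Atp5s were higher instead. The direction differed in 2 members, Atp5b and Uqcrq, neither of which passed in either measure. In the table, 4 members passed without CTRL 2 or without CTRL 4, and 11 without Emul 3.

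Atp5s differed by 0.38 (SE 0.129, adjusted p = 0.256) in the table but by 0.04 (SE 0.0710, adjusted p = 0.810) from summed counts. In the table it was at 3.22, 2.77, 2.84 and 2.77 log2 CPM in CTRL and at 3.20, 3.60, 3.04, 3.20 and 3.36 in Emul. CTRL 1 lay within the Emul range and the other CTRL libraries below it. Only 51.5% of its counts were on its 1 older transcript, the one with a low Ensembl number, and counts on low-numbered transcripts alone gave 0.39, with an unadjusted p-value of 0.0127. This older transcript held 44.8% ± 7.37 of the counts of Atp5s in CTRL and 56.8% ± 6.79 in Emul (exact permutation p = 0.0714). Cyc1, cytochrome c1 of complex III, had 55.6% of its counts on such a transcript and differed by -0.18 (SE 0.0910, adjusted p = 0.414) in the table and by -0.03 (SE 0.0362, adjusted p = 0.678) from summed counts. For this pair the value depends on which transcripts are summed.

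The mitochondrially encoded partners of these complexes were higher in Emul in 6 of 6 genes at an unadjusted p-value under 0.05, against 6.84% of genes tested, and in each the groups did not overlap, as in 2.8% of genes. Their adjusted p-values (limma-voom) were between 0.0569 and 0.179. The 6 genes were measured in the same libraries, so they are not 6 separate results. The log2 fold change was 0.21 (SE 0.0478) for mt-Cytb of complex III, 0.19 (SE 0.0403), 0.83 (SE 0.149) and 0.57 (SE 0.135) for mt-Co1, mt-Co2 and mt-Co3 of complex IV, and 0.59 (SE 0.114) and 0.57 (SE 0.177) for mt-Atp6 and mt-Atp8 of ATP synthase, whose reading frames overlap. The median of the 6 genes was 0.57, and 0.33 without CTRL 3 and Emul 2, where all 6 stayed above 0. Their summed CPM was 31883, 28363, 26607 and 33259 in CTRL and 38491, 42784, 38725, 34547 and 37504 in Emul. Per CPM of the 37 nuclear subunits this was 7.26, 6.58, 6.49 and 7.76 in CTRL and 8.62, 8.56, 9.24, 7.84 and 8.51 in Emul, so the ratio of mitochondrial to nuclear subunit RNA was higher in every Emul library than in every CTRL library. The margin was narrow, at 7.76 in CTRL 4 and 7.84 in Emul 4. Emul 3, low in the nuclear subunits, had the highest ratio.

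Factors that build the complexes without staying in them were higher in Emul in 3 of 32 genes tested (9.38%, against 6.84% of all genes) and lower in 0 at an unadjusted p-value under 0.05. Of 6 complex III assembly factors 2 were higher, Lyrm7, which hands over the Rieske protein (0.16, SE 0.0585, exact permutation p = 0.0159), and Uqcc3, which acts in cytochrome b assembly (0.18, SE 0.0660, exact permutation p = 0.0238). Of 23 complex IV assembly genes 22 were tested and 1 was higher, Cox16 (0.24, SE 0.0931, exact permutation p = 0.0556). Of 4 ATP synthase assembly factors 0 passed. Atpif1, the inhibitor of ATP synthase, whose symbol lies outside the rule, was higher by 0.16 (SE 0.0638, exact permutation p = 0.0714), at 6.41 ± 0.0860 log2 CPM in CTRL and 6.57 ± 0.131 in Emul. Usmg5, a small Fo-associated subunit, differed by 0.26 (SE 0.123, exact permutation p = 0.0556), with Emul 2 at 7.02 and the rest of Emul at 6.29 to 6.44. Atp5mpl, listed with Atpif1 and Usmg5, differed by 0.10 (SE 0.0968, exact permutation p = 0.556), and by -0.03 without CTRL 3 and Emul 2. Of 40 nuclear complex I subunits (Nduf), 2 were higher and 0 lower, against 6.84% and 8.99% of genes tested, with a median of 0.05. As among the members, most lay above 0, 33 against 7 below, and 21 against 19 without CTRL 3 and Emul 2. The groups did not overlap in 3 complex I subunits, all higher in Emul. The direction of the members was thus not particular to them. Lyrm7 kept a p-value under 0.05 with any single library left out, whereas without CTRL 3 the unadjusted p-values of Uqcc3, Cox16 and Atpif1 were 0.0547, 0.0738 and 0.0895. No gene of these lists passed an adjusted p-value of 0.05.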

How the data were processed

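RNA of 9 MBH samples was sequenced, and per the labels the authors used FastQC 0.11.9, kallisto 0.46.1 and edgeR 3.40.1 (submitters' processing notes). The authors deposited estimated counts, TPM and transcript lengths for 119414 transcripts per library, and a table of log2 CPM. How transcripts were summed for that table is not given in the sources used here. Samples were grouped by their labels, and nothing was removed.

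Transcripts were assigned to genes by GENCODE M21 (97.8% matched) and estimated counts were summed. Unmatched transcripts, with 1.20% to 1.27% of a library's counts, were not used. A gene was tested if its CPM exceeded 1 in 4 or more libraries, which held for 15340 genes, and library sizes were scaled by TMM. Groups were compared by limma-voom (limma 3.58.1, edgeR 4.0.16, R 4.3.3) without covariates, with Benjamini-Hochberg adjustment over all genes. Values per library are log2 CPM with a prior count of 2. Single values were compared by two-sided exact permutation over 126 arrangements (smallest p = 0.0079). The table was tested with limma (eBayes with trend). P-values measure the spread between litters, 1 library each, and the closest 2 libraries of a group differed by a chi-square of 6.8 per gene. Alternatives were DESeq2 1.42.0, edgeR's quasi-likelihood test (both on rounded counts), other scalings, filters and transcript sets, removed length or GC trends, and each library left out. Shared sequence was counted in 31-mers, and copies holding over 25% of those of a member were summed with it as an alternative. Fits were tested on simulated counts.

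Members and lists were chosen with earlier results of these data known. Genes given library by library are members with an unadjusted p-value under 0.05, isoform families, members whose measures differ, and the most and least abundant per complex. Atp5s, Cyc1 and the pairs with shared coding sequence were singled out after their values were seen.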

Additional observations from a re-analysis of the deposited data

Results flagged for a closer look

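Each group of each member, isoform share and summed CPM was searched for a library far from the others, by the gap to the nearest library as a share of the whole range of the group. Of 98 groups examined, 8 passed the 95% critical value of Dixon's test, where chance flags about 1 in 20. The libraries flagged were Emul 2 in 4 groups, and CTRL 3 and CTRL 1 in the rest. Emul 2 was above the other Emul libraries in Atp5l (6.98 against 6.48 to 6.55 log2 CPM, gap 0.871), Cox7b (7.09 against 6.58 to 6.66, gap 0.849), Cox6c (7.22 against 6.59 to 6.76, gap 0.724) and Cox7a2 (6.60 against 6.08 to 6.23, gap 0.713). CTRL 3 was below the other CTRL libraries in Cox6b1 (6.67 against 6.85 to 6.87, gap 0.896) and Cox7b (6.38 against 6.51 to 6.54, gap 0.838). CTRL 1 was above the others in Cox4i1 (7.99 against 7.89 to 7.90, gap 0.908) and Atp5d (6.60 against 6.54 in the others, gap 0.899). Cox7b, higher in Emul in the report, was flagged in both groups.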

How the results depend on the processing

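The count of members higher in Emul, 6, was 3 with library size alone and 14 with the replicate number as a block, and it ranged from 3 to 15 with a library left out. The count lower, 1, was 2 with the trend with transcript length removed, and ranged from 0 to 1 with a library left out. Chosen after seeing the data, leaving out both CTRL 3 and Emul 2 gave 3 higher and 2 lower, and adding near-identical copies gave 0 lower, with Atp5g2 a small part of its sum. By DESeq2, 1 member passed an adjusted p-value of 0.05. Non-overlapping members numbered 4, and 4 to 11 with a library left out. The share of all genes under the same alternative is not given beside these counts, so they are not read as particular to the members. Whether the replicate numbers pair the libraries is not stated in the sources used here. The deviations of same-numbered libraries correlated between -0.163 and 0.0214, which cannot settle it, since a shared step need not show in them. With the block the table of the authors gave 16 members in place of 7. With a library left out it gave 4 to 11.

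Atp5f1 kept its direction and an unadjusted p-value under 0.05 in 24 of 24 alternatives, with a log2 fold change of 0.10 to 0.15, Atp5c1 in 23, Cycs in 22, Uqcrc2 in 20, Atp5o and Atp5g2 in 19 and Cox7b in 17 of 24. None of the 7 named members that passed changed direction in these 24, which leave out TPM. In TPM Atp5c1 turned (a log2 difference of -0.00884) and the others kept their direction, some of them barely. Cycs was at 0.00222, Atp5o at 0.0103, Uqcrc2 at 0.0228, Atp5f1 at 0.0424, Cox7b at 0.0975 and Atp5g2 at -0.412. The difference in the Cox6b2 share turned to 0.116 percentage points with older transcripts only. With a library left out, the differences in share ranged from -0.0984 to 0.0587 for Cox6b2, from -0.00759 to 0.0359 for Cox4i2, from -0.0679 to 0.00185 for Cox8b and from -0.884 to -0.389 for Cox7a1. The log2 fold change turned for Atp5s without both CTRL 3 and Emul 2 (-0.00494), for Cyc1 with lengthScaledTPM counts (0.0842), and for Gm10175 with the length trend removed (-0.0209) or without Emul 2 (-0.0121). Except where stated, the cause was not tested. Of the values of 22 single genes under the alternatives other than TPM, 460 kept direction and side of the threshold, 38 no longer passed, 18 newly passed and these 4 turned. The median log2 fold change of the members, 0.07, was -0.0206 in TPM, chosen after seeing the data, where the median of all genes tested was -0.09, 0.00 without both libraries and 0.03 to 0.10 under all others. Low counts limit Cox7a1, Cox6b2, Cox8b and Cox4i2.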
